A study of Mus musculus with 7 samples.

Results

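The cell cycle genes of S and G2/M phase described here are 48 mouse genes whose mRNA is made mainly while a cell copies its DNA or divides. They were found by symbol in the annotation of the array, 1 probe set a gene, out of 25428 probe sets in all. The platform annotation named 47 of them and the RefSeq gene table named Ccnb1. Their expression was read in conventional type 1 dendritic cells (cDC1) sorted from lungs that carried late KP tumors, written KP(l), and from control lungs, written nLung. None of the 48 differed between the groups at the thresholds used, and their differences had both signs.

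All mice were C57/BL6. In KP(l) mice 100000 KP cells had been given by tail vein, and lungs were taken on day 28. KP is 1 transplantable line, not authenticated, derived from lung tumors of mice with an inducible (LSL) K-ras allele and floxed p53. The nLung mice carried no tumor and, by the methods of the study, had been injected with PBS; the sample labels describe them as healthy controls. Each array, a Mouse Gene 2.0 ST, held RNA of cDC1 from a pool of lungs of 2 to 3 mice. There were 3 arrays of KP(l) and 4 of nLung, labelled as biological replicates, and this number of arrays limits the precision. Age was not given in the sources used here. Cells had been enriched for CD11c on beads and sorted by staining for MHC class II, CD11b, CD11c, CD103 and SiglecF, which does not separate dividing from resting cells. A pool measured in bulk cannot tell apart fewer cycling cells and less RNA per cycling cell. Levels are given as linear expression, which is 2 to the power of the deposited log2 value, and can be compared between arrays but not between genes.

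Cells enter S phase when the kinases driven by cyclins D and E inactivate the retinoblastoma proteins and release the transcription factors of the E2F family, which switch on the genes of DNA replication. The genes of G2 and mitosis follow later, when the MuvB core exchanges its repressive pocket proteins for B-MYB and FOXM1 and binds promoters at the cell cycle genes homology region (CHR), often near CCAAT boxes bound by NF-Y. Mitosis ends when the anaphase-promoting complex (APC/C) destroys cyclins and securin. In the dendritic cell lineage it is mainly the precursors that divide, with some further division after they reach tissues, so that these mRNAs are commonly used as a readout of proliferation.

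The promoters of the members carry these elements to differing degrees. RefSeq windows on GRCm38.p6, from 250 bases before to 50 bases after the start of the gene, were at hand for 38 of the 48 members. The other 10 are Foxm1, Gins2, Aurkb, Kif20a, Ccna2, Ccne2, Mcm4, Gmnn, Tpx2 and Cdc25c. Where RefSeq lists several starts, the first window of the table was taken. The start of the window was the outermost start of the gene in 21 members and lay further inside it in 17. The windows were searched on both strands for the CHR letters TTTGAA or TTCGAA, for CCAAT, and for the E2F letters TTTCCCGC, TTTCGCGC, TTTGCCGC or TTTGGCGC, and overlapping matches counted separately. CHR letters were in 17 of 21 G2/M members (81.0%), which here include Mki67 and Top2a, in 3 of 17 members of the S phase groups (17.6%) and in 19.4% of the 27025 genes with a window. E2F letters were in 6 of the 17 S phase members (35.3%), in 1 of the 21 G2/M members, Cdk1, and in 2.32% of all windows. All 6 S phase members with E2F letters, Cdc6, Cdt1, Mcm3, Mcm5, Mcm6 and Mcm7, belong to the origin licensing group. CCAAT was commoner throughout, in 18 of 21 G2/M members (85.7%), 10 of 17 S phase members (58.8%) and 37.9% of all windows. CHR letters and CCAAT stood together in 19 members, of which 16 are G2/M genes, and in 7.70% of all windows. A match describes the letters only and is not evidence of binding. Of the 20 members with CHR letters, 11 had them before the start of the window's transcript and the rest only at or after it.

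**Figure D1:**
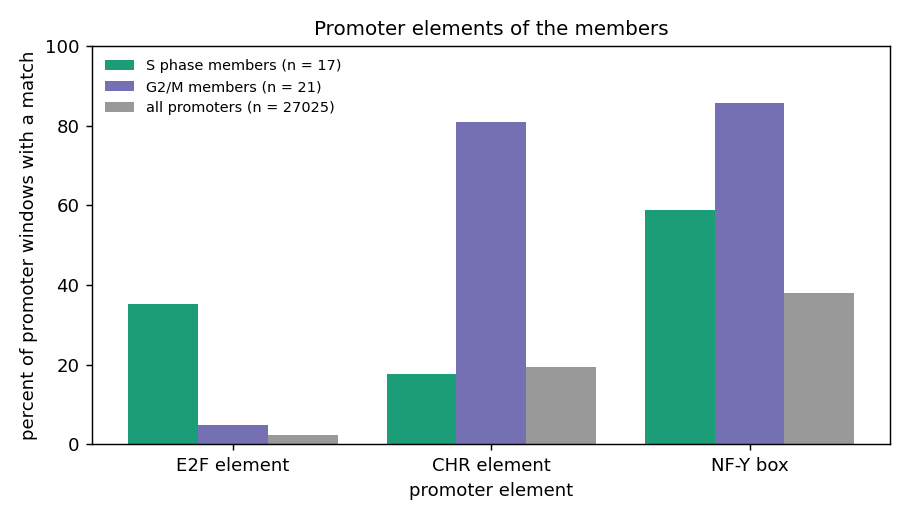
Percent of promoter windows (vertical axis) that hold E2F letters, CHR letters or CCAAT, labelled NF-Y box (horizontal axis), for the 17 S phase members, the 21 G2/M members and all 27025 genes with a window. The S phase members stand above all windows for E2F letters (35.3% against 2.32%) and the G2/M members for CHR letters (81.0% against 19.4%).

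The sequences of 6 promoters are shown because their genes recur in the results: Ube2c and Cdc20 of the APC/C, the proliferation markers Top2a and Mki67, and the helicase subunits Mcm6 and Mcm5. Each line holds the 150 bases before the outermost RefSeq start of the gene, 5′ to 3′ along the strand of the gene, and capitals mark the CHR, CCAAT and E2F letters on either strand. Positions are chr2:164769779-164769928 (+) for Ube2c, chr4:118437344-118437493 (-) for Cdc20, chr11:99024200-99024349 (-) for Top2a, chr7:135716451-135716600 (-) for Mki67, chr1:128359706-128359855 (-) for Mcm6 and chr8:75109318-75109467 (+) for Mcm5.
Ube2c: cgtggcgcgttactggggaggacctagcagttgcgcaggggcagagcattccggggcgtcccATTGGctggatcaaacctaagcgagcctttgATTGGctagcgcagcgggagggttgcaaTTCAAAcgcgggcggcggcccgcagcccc
Cdc20: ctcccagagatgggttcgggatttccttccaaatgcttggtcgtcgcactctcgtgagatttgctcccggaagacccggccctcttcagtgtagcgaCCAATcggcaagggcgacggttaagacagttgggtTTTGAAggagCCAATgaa
Top2a: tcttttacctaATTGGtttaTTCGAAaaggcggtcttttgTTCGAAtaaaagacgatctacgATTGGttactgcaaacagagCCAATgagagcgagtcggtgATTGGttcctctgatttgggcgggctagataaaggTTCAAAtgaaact
Mki67: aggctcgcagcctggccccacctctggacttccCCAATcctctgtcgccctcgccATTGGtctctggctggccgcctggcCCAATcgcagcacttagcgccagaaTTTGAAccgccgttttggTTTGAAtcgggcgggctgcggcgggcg
Mcm6: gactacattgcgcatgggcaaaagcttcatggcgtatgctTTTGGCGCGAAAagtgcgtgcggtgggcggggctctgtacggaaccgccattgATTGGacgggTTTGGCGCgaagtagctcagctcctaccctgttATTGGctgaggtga
Mcm5: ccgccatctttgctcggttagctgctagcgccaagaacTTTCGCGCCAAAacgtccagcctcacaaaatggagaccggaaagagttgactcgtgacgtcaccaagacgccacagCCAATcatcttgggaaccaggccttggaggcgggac
The 4 promoters of Ube2c, Cdc20, Top2a and Mki67 hold CHR letters and no E2F letters, and those of Mcm6 and Mcm5 hold E2F letters and no CHR letters. In these 150 bases Top2a has 3 CHR and 4 CCAAT matches, Mki67 has 2 CHR and 3 CCAAT matches, Mcm6 has 3 E2F matches, a pair of which overlap, and Mcm5 has 2 that overlap.

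Each probe set was compared between KP(l) and nLung with limma on the log2 values, and the Benjamini-Hochberg adjustment covered all 25428 of them. Calls needed both an adjusted p no higher than 0.05 and at least a 2-fold difference. Of the 48 members 0 were called, and 0% of all probe sets were called in either direction. SAM, rewritten here to run over all 35 splits of the arrays, also called 0. The study did report differentially expressed transcripts from its own SAM run at like thresholds, and why the runs differ was not tested. The smallest adjusted p of the members was 0.912 in limma, and over all probe sets it was 0.502. At an unadjusted p under 0.05, 1 member was higher in KP(l), Ube2c, beside 2.62% of all probe sets. Another 2, Mcm6 and Kif20a, were lower, beside 2.24% of all probe sets. The fold change reached 2 in 1 member, Ccna2, which was lower, beside 0.865% of all probe sets, and in 0 members upward, beside 0.979%. In 0 members did the KP(l) arrays lie all above or all below the nLung arrays, beside 2.12% of all probe sets above and 1.72% below. As shares of the 48 members, counts of 1 and 2 are 2.08% and 4.17%.

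The members were also divided in sign. Log2 fold changes ran from -1.10 to 0.94 with a median of -0.08, beside 0.02 over all probe sets. They lay above 0 in 22 members and below 0 in 26, while 54.4% of all probe sets lay above 0 and 45.6% below. Of the probe sets above the median mean, where 47 of the members lie, 50.8% lay above 0 and 49.2% below. The 95% interval of the fold change stayed within 2-fold in either direction in 21 of the 48 (43.8%). This held for 78.4% of all probe sets and 65.0% of those above the median mean. The interval reached past 2-fold upward in 11 members (22.9%) and downward in 18 (37.5%), so that these arrays could not bound the difference there. Each share was 12.5% over all probe sets, and 20.1% upward and 20.7% downward over those above the median mean. Replicates differed more for the typical member than for the typical probe set. The median standard deviation within groups was 0.37 on the log2 scale, beside 0.24 over all probe sets and 0.33 over those above the median mean.

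**Figure D2:**
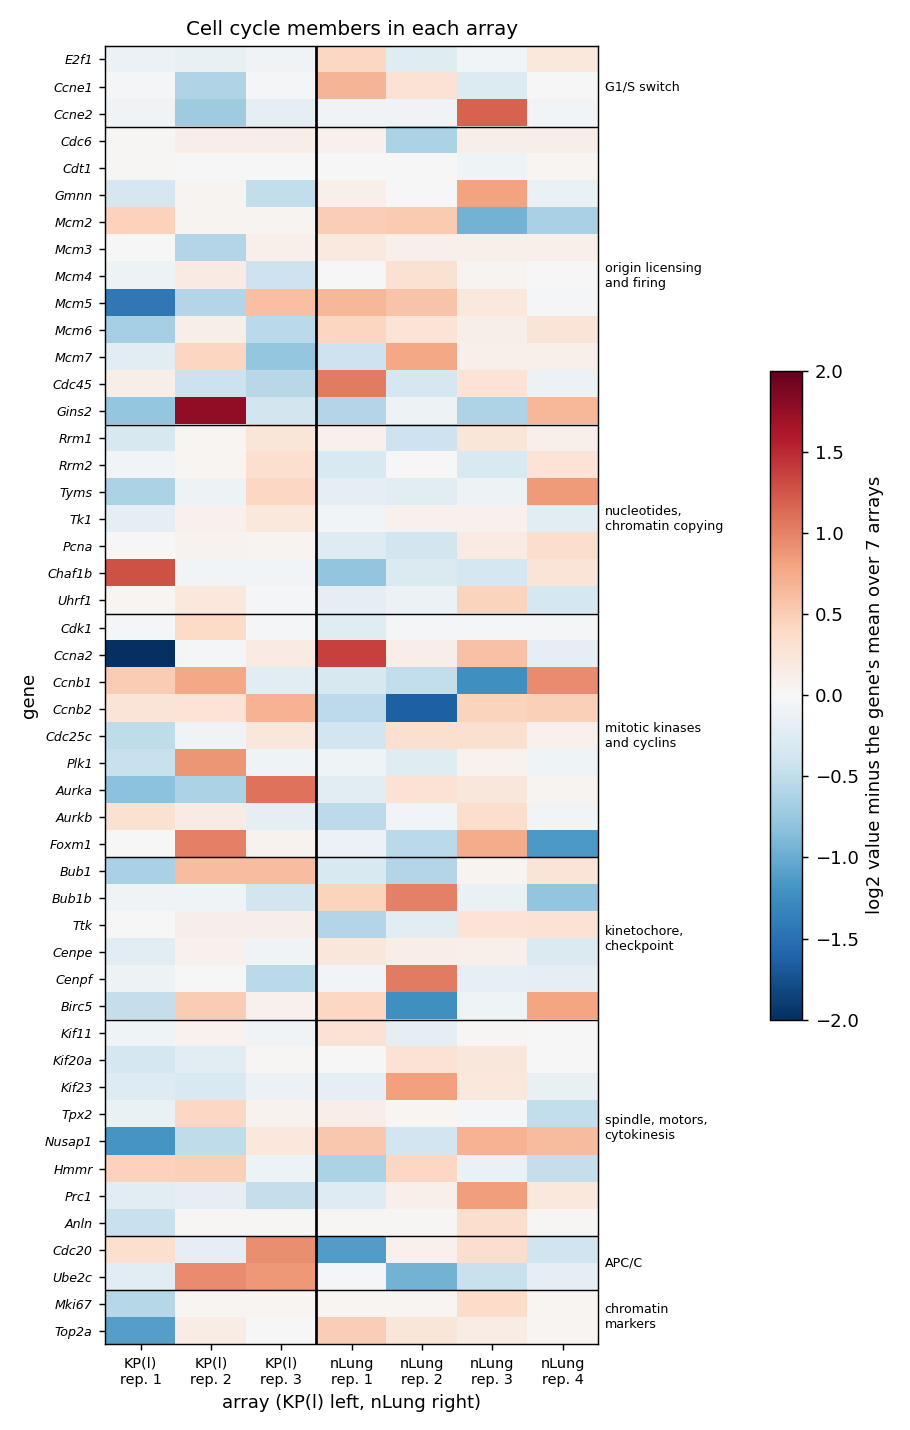
Deviation of each member (rows, by role) from its own mean over the 7 arrays, on the log2 scale, with the 3 KP(l) arrays left and the 4 nLung arrays right. The 5 largest role groups mix both colors within each group of arrays, and the deepest blue of Ccna2, Mcm5, Nusap1 and Top2a is in KP(l) replicate 1.

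**Figure D3:**
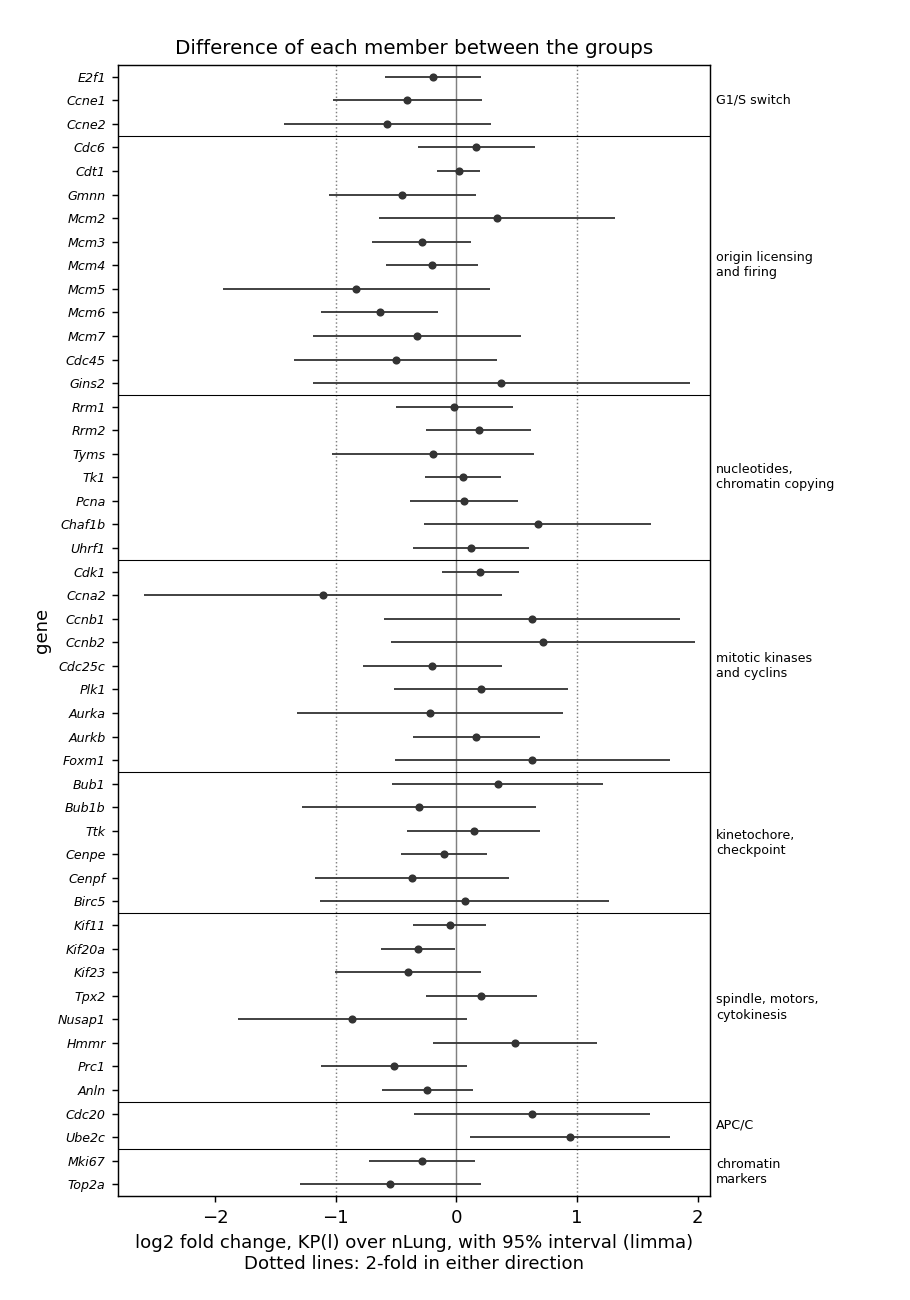
Log2 fold change of each member, KP(l) over nLung (horizontal axis), with its 95% interval from limma. The values spread on both sides of 0 from -1.10 (Ccna2) to 0.94 (Ube2c), and the intervals of Mcm6, Kif20a and Ube2c leave out 0.

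The proliferation markers that are most often stained, Ki-67 (Mki67), which coats mitotic chromosomes, and topoisomerase II alpha (Top2a), which untangles replicated DNA, were examined first. Mki67 had a linear expression of 125, 191 and 191 in KP(l) replicates 1 to 3, against 191, 191, 239 and 191 in nLung replicates 1 to 4. The value of 191 was the same in 5 of the 7 arrays. The groups thus shared most of their values and parted only through KP(l) replicate 1, the lowest, and nLung replicate 3, the highest. The log2 fold change was -0.29 (standard error 0.18, adjusted p = 0.912 in limma), and -0.08 without KP(l) replicate 1. Top2a had 84.6, 203 and 183 in KP(l) against 257, 215, 203 and 187 in nLung. KP(l) replicate 1 lay far below every other array, while KP(l) replicate 2 equalled nLung replicate 3. Its log2 fold change was -0.55 (standard error 0.31, adjusted p = 0.912 in limma), and -0.15 without that array.

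The G1/S switch was represented by E2f1, which encodes a transcription factor of the E2F family, and by the cyclins E1 and E2, which activate CDK2. All 3 had log2 means below those of nLung, and their log2 fold changes had a median of -0.40. None of the 3 passed the test. Ccne1 had 33.8, 22.8 and 33.8 in KP(l) against 55.9, 42.6, 28.9 and 34.5 in nLung, with the groups overlapping. Ccne2 had 20.0, 12.8 and 18.5 in KP(l) against 20.1, 20.0, 47.9 and 20.2 in nLung. Apart from nLung replicate 3, the nLung arrays lay at the level of KP(l) replicate 1. The log2 fold changes were -0.40 (standard error 0.26) for Ccne1 and -0.57 (standard error 0.36) for Ccne2, and E2f1 had -0.19.

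Origin licensing loads the helicase ring of MCM2 to MCM7 onto DNA with the help of CDC6 and CDT1, geminin (Gmnn) restrains CDT1, and CDC45 and the GINS complex turn the ring into an active helicase. Of these 11 members 4 had a log2 fold change above 0 and 7 below, with a median of -0.29. Mcm6 had 70.9, 123 and 77.1 in KP(l) against 152, 136, 123 and 134 in nLung. All KP(l) arrays except replicate 2, which equalled nLung replicate 3, lay below every nLung array. Its log2 fold change was -0.64 (standard error 0.20, unadjusted p = 0.0174 and adjusted p = 0.912 in limma), and an exact permutation test, two-sided over the 35 splits of the arrays, gave p = 0.0571, where the smallest possible is 0.0286. The arrays form 2 sets that differ in the upper quartile of all values. The first set holds replicates 1 and 2 of both groups. The second set holds the other 3 arrays, with KP(l) replicate 3 as its only KP(l) array, so that its fold changes rest on that array. The log2 fold change of Mcm6 was -0.63 in the first and -0.73 in the second. Mcm5 had 14.7, 26.4 and 60.1 in KP(l) against 62.5, 59.1, 45.8 and 39.0 in nLung. KP(l) replicates 1 and 2 were the lowest of the 7, and replicate 3 stood among the highest. Its log2 fold change was -0.83 (standard error 0.46, adjusted p = 0.912 in limma), or -1.62 in the first set and 0.51 in the second.

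Among the other subunits of the same ring, log2 fold changes were 0.34 for Mcm2, -0.29 for Mcm3, -0.20 for Mcm4 and -0.33 for Mcm7. Like that of Mcm5, none of these had an unadjusted p under 0.05, and no difference between subunits was tested. Cdt1 was the steadiest member, with 35.7 to 38.8 over all 7 arrays, a log2 fold change of 0.02 and a 95% interval from -0.16 to 0.19. Gins2 was among the least steady, since KP(l) replicate 2 stood at 232, against 39.9 and 52.9 in the other KP(l) arrays and 44.2 to 108 in nLung. Cdc6, Gmnn and Cdc45 had log2 fold changes of 0.17, -0.45 and -0.50.

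Ribonucleotide reductase (Rrm1, Rrm2), thymidylate synthase (Tyms) and thymidine kinase (Tk1) supply nucleotides, PCNA is the sliding clamp of the replication fork, and Chaf1b and Uhrf1 restore nucleosomes and DNA methylation behind it. In this group 5 of 7 members had a log2 fold change above 0, with a median of 0.06, and 0 passed the test. Pcna had 1181, 1242 and 1232 in KP(l) against 992, 924, 1336 and 1511 in nLung. The KP(l) arrays lay close together inside the range of nLung, and the log2 fold change was 0.06 with a 95% interval from -0.39 to 0.51. It was 0.34 in the first set of arrays and -0.21 in the second. Rrm2 had 73.4, 79.1 and 96.6 in KP(l) against 62.1, 77.3, 61.7 and 92.8 in nLung, and the groups overlapped. Chaf1b, a subunit of chromatin assembly factor 1, had 65.7, 26.3 and 26.3 in KP(l) against 15.8, 22.4, 21.5 and 32.8 in nLung. Its log2 fold change was 0.67 (standard error 0.39, adjusted p = 0.912 in limma), with KP(l) replicate 1 far above the rest, and 1.14 in the first set of arrays and -0.02 in the second.

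The mitotic kinases and cyclins were more often higher than lower, with 6 of 9 log2 fold changes above 0 and a median of 0.20, but the largest of them ran the other way. Cyclin A2 (Ccna2), which drives S phase and entry into mitosis, had 29.1, 116 and 133 in KP(l) against 305, 129.5, 178 and 103 in nLung. KP(l) replicate 1 was the lowest and nLung replicate 1 the highest, 10.5-fold apart, and the remaining arrays of both groups overlapped. The log2 fold change was -1.10 (standard error 0.62, adjusted p = 0.912 in limma, exact permutation p = 0.229, two-sided), and -0.40 without KP(l) replicate 1. It was -1.78 in the first set of arrays and -0.02 in the second. Cdk1, the kinase that cyclins A and B activate for mitosis, had 59.8, 80.0 and 59.8 in KP(l) against 51.2, 59.8, 59.8 and 59.2 in nLung. It had the same value in 4 arrays, and its log2 fold change was 0.20 with a 95% interval from -0.12 to 0.52.

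The B cyclins, partners of CDK1, had positive but loose differences. Ccnb2 had 113, 113 and 153 in KP(l) against 65.5, 30.5, 129 and 131 in nLung, a log2 fold change of 0.72 (standard error 0.53). Ccnb1 had 75.8, 91.0 and 45.7 in KP(l) against 42.7, 37.8, 22.8 and 102 in nLung, a log2 fold change of 0.63 (standard error 0.51). In the first set of arrays the log2 fold change was 1.34 for Ccnb2 and 1.05 for Ccnb1, and in the second 0.24 and -0.08. Both had 1 or more nLung arrays above or among the KP(l) arrays, and a pseudogene of Ccnb1 has a probe set of its own, so that the level of Ccnb1 may be shared with a near-identical copy. Foxm1, the activator of G2/M genes, had a log2 fold change of 0.63, Plk1, which drives centrosome maturation, 0.20, Aurkb of the chromosomal passenger complex 0.17, the spindle pole kinase Aurka -0.22 and the CDK1-activating phosphatase Cdc25c -0.20. None of these had an unadjusted p under 0.05.

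**Figure D4:**
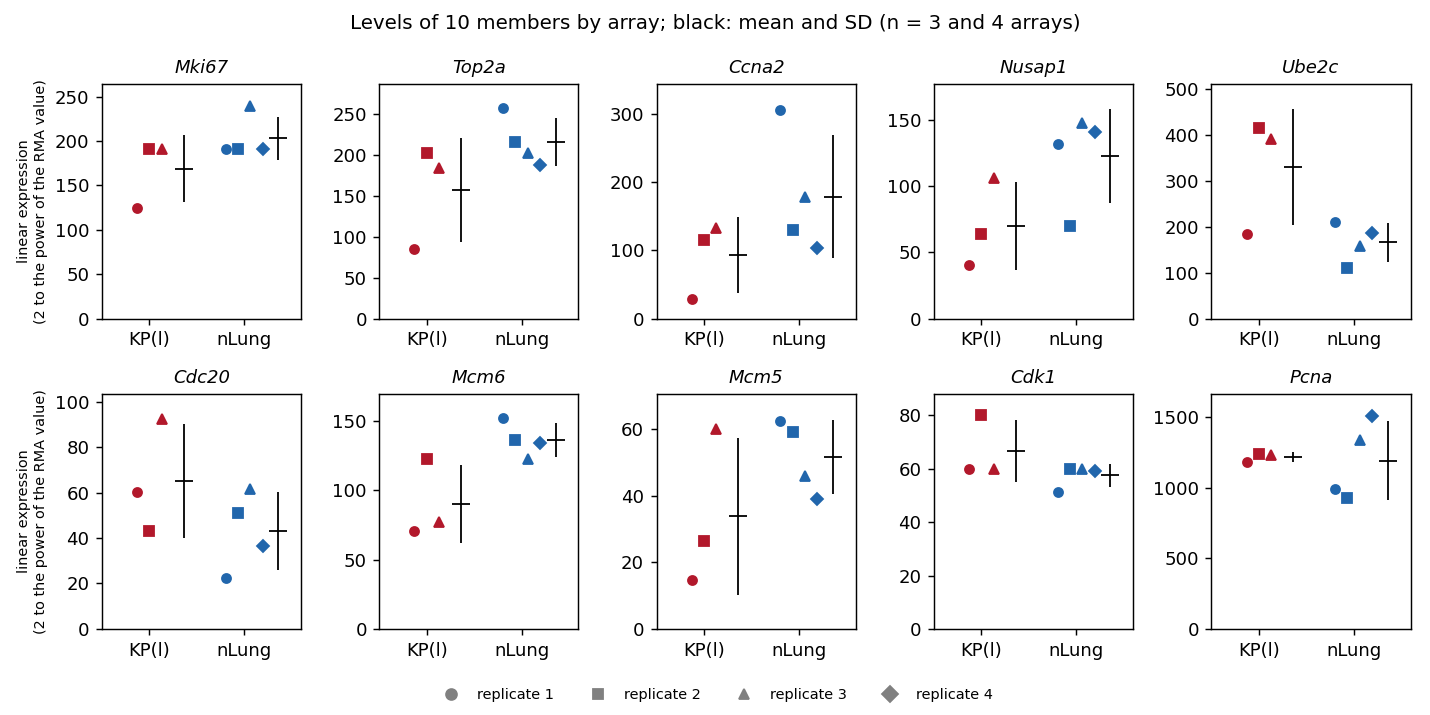
Linear expression (2 to the power of the RMA value, vertical axis from 0) of 10 members in each array, with KP(l) left and nLung right, symbols for replicate numbers and the mean with its standard deviation in black (n = 3 and 4 arrays). The groups overlap or meet in every panel, and KP(l) replicate 1 is the lowest array for Mki67, Top2a, Ccna2, Nusap1, Mcm6 and Mcm5.

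Kinetochore and checkpoint genes were split evenly, with 3 of 6 log2 fold changes above 0 and a median of -0.02. Bub1, a checkpoint kinase that guards against premature anaphase, had 19.2, 45.8 and 45.9 in KP(l) against 24.2, 20.0, 31.0 and 35.6 in nLung. KP(l) replicates 2 and 3 were above every nLung array and replicate 1 below all of them. Its log2 fold change was 0.34 (standard error 0.36, adjusted p = 0.921 in limma), and 0.76 without KP(l) replicate 1, with an unadjusted p of 0.0245 in limma. It was 0.134 without KP(l) replicate 2 and 0.132 without KP(l) replicate 3, with unadjusted p of 0.758 and 0.760 in limma. Cenpf, a kinetochore protein, had 27.7, 30.0 and 20.6 in KP(l) against 28.8, 61.4, 26.5 and 26.0 in nLung, and only nLung replicate 2 stood apart. Survivin (Birc5), which anchors the chromosomal passenger complex, had 44.8, 88.5 and 66.2 in KP(l) against 83.1, 26.5, 58.4 and 107 in nLung, and both groups spread widely around a log2 fold change of 0.07 (standard error 0.50). Bub1b, Ttk and Cenpe had -0.31, 0.14 and -0.11.

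The spindle and cytokinesis group had 6 of 8 log2 fold changes below 0 and a median of -0.28. Nusap1, which stabilizes spindle microtubules, had 40.1, 64.1 and 106 in KP(l) against 132, 70.1, 147 and 141 in nLung. KP(l) replicates 1 and 2 were the lowest of the 7 arrays, while KP(l) replicate 3 lay above nLung replicate 2. The log2 fold change was -0.86 (standard error 0.40, adjusted p = 0.912 in limma), or -0.92 in the first set of arrays and -0.45 in the second. The kinesin Kif20a, which acts in cytokinesis, had 12.93, 14.1 and 16.7 in KP(l) against 16.6, 20.1, 19.3 and 16.6 in nLung. The groups met at KP(l) replicate 3, and the log2 fold change was -0.32 (standard error 0.13, unadjusted p = 0.0436 and adjusted p = 0.912 in limma). These are low values, not far above the median level of all probe sets.

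Kif23, a kinesin of the central spindle, had 95.3, 91.5 and 104 in KP(l) against 99.7, 199.9, 132 and 102 in nLung. The KP(l) arrays were close together, nLung replicate 2 was 2.18-fold above the lowest of them, and the log2 fold change was -0.40 (standard error 0.25). Among the rest, Kif11, the motor that separates spindle poles, had -0.05 with a 95% interval from -0.36 to 0.25, the spindle assembly factor Tpx2 0.21, Hmmr 0.49, and Prc1, which bundles microtubules of the central spindle, -0.52. The values of Prc1 were low, near the median level of all probe sets. Anln (anillin), a scaffold of the contractile ring, had the same value in 5 of 7 arrays, as Mki67 did, and a log2 fold change of -0.24.

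Both members that act with the APC/C had their highest value in a KP(l) array. Ube2c, the ubiquitin-conjugating enzyme that works with this complex, had 185, 413 and 391 in KP(l) against 209.8, 111, 157 and 186 in nLung. KP(l) replicates 2 and 3 were above every nLung array, and replicate 1 lay within the nLung range. Its mean was 329.6 ± 126 in KP(l) and 166 ± 42.5 in nLung (SD, n = 3 and 4 arrays), a log2 fold change of 0.94 (standard error 0.35). The unadjusted p was 0.0317 and the adjusted p 0.912 in limma, and the exact permutation test, two-sided, gave 0.0857. The log2 fold change was 0.86 in the first set of arrays and 1.19 in the second. It was 1.32 without KP(l) replicate 1, and 0.73 and 0.78 without KP(l) replicates 2 and 3, where the unadjusted p in limma was 0.112 and 0.107. Cdc20, an activator of the complex, had 60.3, 42.9 and 92.3 in KP(l) against 22.3, 51.2, 61.7 and 36.6 in nLung. The groups overlapped, and the log2 fold change was 0.63 (standard error 0.41, adjusted p = 0.912 in limma).

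KP(l) replicate 1 had more of the low values than any other array. It held the single lowest value in 14 of the 48 members (29.2%), beside 13.6% of all probe sets, and the single highest in 1 member, Chaf1b (2.08%), beside 19.3% of all probe sets. No other array held the lowest value in more than 8 members. KP(l) replicates 2 and 3 were lowest in 4 and 6 members, and highest in 8 and 6. The median deviation of the members from their own means was -0.12 in KP(l) replicate 1, 0.06 and 0.01 in the other KP(l) arrays and -0.04 to 0.12 in nLung. Without KP(l) replicate 1 the median log2 fold change of the members was 0.038, with 25 above 0 and 23 below. At an unadjusted p under 0.05 in limma, 2 members were then higher (Bub1 and Ube2c) and 0 lower. Over all probe sets the shares in that fit were 2.36% higher and 1.7% lower. The members lowest in this array included both markers on chromatin, 4 of 9 mitotic kinases and cyclins and 3 of 8 spindle genes.

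**Figure D5:**
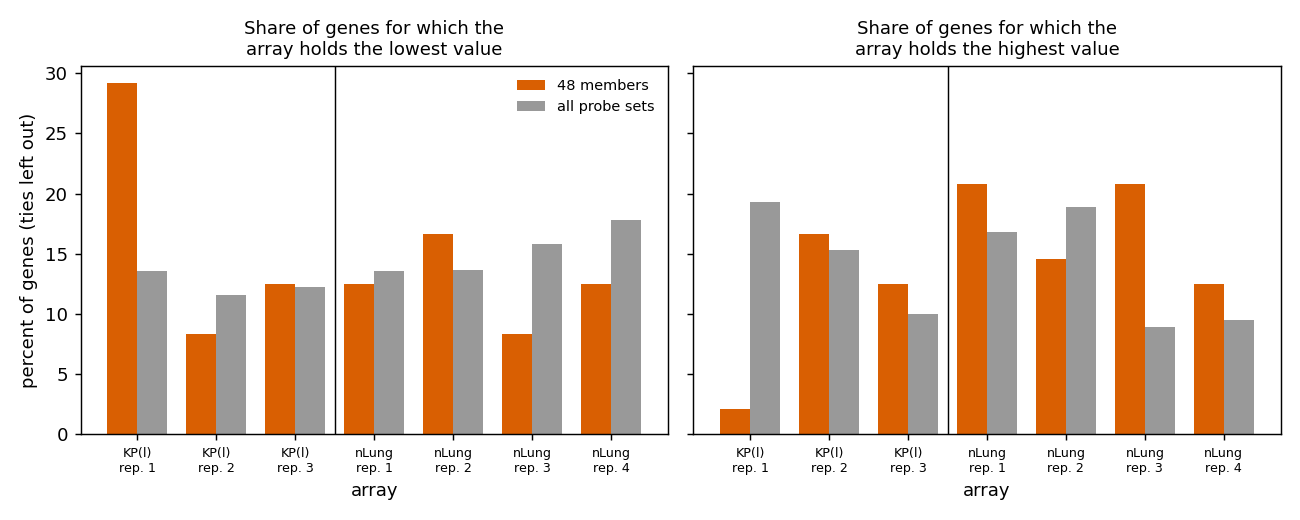
Percent of genes (vertical axis) for which each array (horizontal axis, KP(l) left of nLung) holds the single lowest value, left panel, or the single highest, right panel, for the 48 members and for all probe sets. KP(l) replicate 1 is lowest in 29.2% of the members and in 13.6% of all probe sets, and highest in 2.08% and 19.3%.

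Markers of some other cell types were also highest in this array. The summed linear expression of the 8 neutrophil markers was 1576 in KP(l) replicate 1, 71.2 and 58.3 in the other KP(l) arrays and 53.4 to 70.7 in nLung, carried by S100a8 and S100a9, and 6 of the 8 were highest there. The 10 T cell markers summed to 300.2 in KP(l) replicate 1, 88.0 and 95.7 in the other KP(l) arrays and 91.5 to 125 in nLung. This rested on Cd8b1, while Cd3e was 5.38 to 7.69 in all 7 arrays, and only 2 of the 10 were highest in replicate 1. The 8 B and plasma cell markers summed to 108, 61.9 and 59.2 in KP(l) and 54.6 to 59.8 in nLung, with 4 of 8 highest in replicate 1. The 11 alveolar macrophage markers summed to 4601, 4919 and 3083 in KP(l) and 1016 to 2926 in nLung, much of it Plet1, and 6 of 11 were highest in replicate 1, although the sum was highest in replicate 2. The 10 cDC1 markers, among them Xcr1 and Clec9a, summed to 7792, 8534 and 9473 in KP(l) and 7960 to 9381 in nLung, with KP(l) replicate 1 lowest, and each had a 95% interval of its fold change within 2-fold. Markers of epithelial and tumor cells summed to 247 to 367 in KP(l), to 938 in nLung replicate 1 and to 302, 379 and 388 in nLung replicates 2 to 4. Sums in KP(l) replicate 1 were within the range of the other arrays for the 11 monocyte and cDC2 markers (2342, against 2167 to 2590 over all arrays), the 7 NK cell markers (115, against 120 in KP(l) replicate 2) and the 8 endothelial and stromal markers (105, against 91.5 to 114 in nLung). Of these lists, in the same order, 5 of 11, 3 of 7 and 2 of 8 markers were highest in replicate 1. The part of these cells in the values of the members was not tested.

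Further cell cycle genes were measured in 5 lists of 145 genes in all, of which 0 were called. Beside their counts by the unadjusted p, under 0.05 in each list, stand 2.62% of all probe sets higher and 2.24% lower. Of 45 other S phase genes 1 was higher and 2 lower by the unadjusted p, and the median of their log2 fold changes was -0.09 with 17 above 0. Rfc4, a subunit of the clamp loader, had 12.3, 30.8 and 21.3 in KP(l) against 12.6, 11.1, 6.96 and 12.4 in nLung. KP(l) replicates 2 and 3 were above every nLung array, replicate 1 lay within the nLung range, and the log2 fold change was 0.93 (standard error 0.35). Most nLung values and KP(l) replicate 1 lay near the median level of all probe sets, so that this fold change rests on low values. Pold1, the catalytic subunit of DNA polymerase delta, had -0.26.

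Of 56 other G2/M genes 0 were higher and 3 lower by the unadjusted p, with a median of -0.11 and 21 above 0. A pair of these encode condensin subunits, which compact mitotic chromosomes. Ncaph, of condensin I, had 18.7, 26.3 and 23.9 in KP(l) against 42.4, 31.4, 32.1 and 32.6 in nLung, and Ncapg2, of condensin II, 23.4, 26.9 and 23.3 in KP(l) against 36.1, 52.1, 27.2 and 34.0 in nLung. In both every KP(l) array was below every nLung array. The log2 fold changes were -0.59 (standard error 0.16, adjusted p = 0.912 in limma) for Ncaph and -0.57 (standard error 0.22, adjusted p = 0.912 in limma) for Ncapg2, and for Ncaph the exact permutation test, two-sided, gave 0.0286, the smallest p it can give. Lbr, the lamin B receptor, had -0.36. Groups did not overlap in 3 of the 56, all lower in KP(l), beside 1.72% of all probe sets.

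Upstream of S phase, cyclin D1 (Ccnd1) and cyclin D2 (Ccnd2) activate CDK4 and CDK6. Ccnd1 had 347, 261 and 299.5 in KP(l) against 398, 504, 590.4 and 542 in nLung. Every KP(l) array was below every nLung array. The log2 fold change was -0.57 in the first set of arrays and -0.92 in the second, where KP(l) replicate 3 is the only KP(l) array. The mean was 303 ± 43.4 in KP(l) and 508 ± 81.9 in nLung (SD, n = 3 and 4 arrays), a log2 fold change of -0.74 (standard error 0.17, unadjusted p = 0.00339 and adjusted p = 0.912 in limma, exact permutation p = 0.0571, two-sided). For Ccnd2 the difference was -0.34 on the log2 scale (standard error 0.14, unadjusted p = 0.0469 in limma). Of the 14 G1 cyclins, CDKs and their inhibitors 0 were higher and 2 lower at this level, with a median of -0.09. Cdkn1a, the p21 inhibitor of CDKs, had 764, 629 and 779.5 in KP(l) against 982, 938, 759 and 809.6 in nLung, overlapping groups and a log2 fold change of -0.27 (standard error 0.13).

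A list of 20 genes held those of the E2F, pocket protein and DREAM machinery together with Myc and Mycn. By the unadjusted p 1 was higher (Mycn) and 2 were lower (Lin52 and Mybl2), with a median of -0.08. Lin52, a subunit of the MuvB core, had 37.7, 25.1 and 47.1 in KP(l) against 92.3, 53.2, 70.0 and 112 in nLung, and Mybl2 (B-MYB) 19.0, 23.5 and 22.4 in KP(l) against 26.2, 40.6, 25.2 and 30.4 in nLung. In neither did the groups overlap, and the log2 fold changes were -1.15 (standard error 0.32, adjusted p = 0.912 in limma) and -0.48 (standard error 0.19, adjusted p = 0.912 in limma). The groups did not overlap in 3 of the 20, all lower in KP(l), beside 1.72% of all probe sets, and the other of these was Rbl2, which encodes the pocket protein p130. Mycn, the N-MYC transcription factor, had 0.51. Of 10 p53 target genes 0 had an unadjusted p under 0.05, and their log2 fold changes had a median of -0.08. Mdm2, the ubiquitin ligase of p53, Btg2 and Bax had log2 fold changes of -0.75, -0.46 and -0.17, all with overlapping groups.

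The promoter letters did not sort the members by direction. The 20 members with CHR letters had log2 fold changes with a median of -0.14 and 9 above 0, and the 18 with a window but no CHR letters had 0.00 with 9 above 0. Among the 6 promoters printed, Ube2c and Cdc20 had positive and Top2a and Mki67 negative log2 fold changes with CHR letters in all 4. Within the origin licensing group, the 6 members with E2F letters had log2 fold changes from -0.83 (Mcm5) to 0.17 (Cdc6).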

How the data were processed

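cDC1 of 3 KP(l) and 4 nLung pools were profiled. The authors deposited log2 values made by RMA (background correction, quantile normalization and median polish) with affy (R 3.4.2, Bioconductor 3.5) and the BrainArray Entrez definition, version 22.0.0. Median polish can give several arrays 1 value, as in 18 of 48 members. The labels name NuGEN amplification and the paper another protocol.

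The 7 columns were used as deposited, with no filter. Differences, KP(l) minus nLung, were fitted in limma 3.58.1 (R 4.3.3). Single genes were also tested over all 35 splits of the arrays. Alternatives were an intensity trend, array weights, repeated normalization, centring, probe sets above the median mean, blocks for replicate number and array sets, SAM and leaving out each array. The fit was tested on simulated data. Members and lists were chosen with earlier results of these data known. Values per array were given for Mki67, Top2a and, per role, the 2 members with the smallest p and the 1 with the highest mean, and of other lists the 3 with the smallest p were named, except 1 that is not reported here; further members named were chosen after their values were seen. Of 86 marker genes in 9 lists, 83 were measured. Promoters came from RefSeq (GRCm38.p6). Plots used matplotlib 3.10.9 (Python 3.11.15).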

Additional observations from a re-analysis of the deposited data

Results flagged for a closer look

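In 6 of the 34 genes examined array by array, 1 nLung array stood far from the other nLung arrays, judged by its gap to the nearest of them as a share of the range of the group. For normally distributed values chance flags about 1 in 20 such groups. In 55.9% of all probe sets some arrays share 1 value, and near-ties widen the relative gap, so that share need not hold here. The share flagged over all probe sets was not computed, and an excess of outlying arrays cannot be read from these counts. Mki67 in nLung replicate 3 had a gap of 1 times the range, since the other 3 nLung arrays shared 1 value. Ccne2 had 0.985 in nLung replicate 3, Cdk1 0.938 in nLung replicate 1 (the lowest), Cenpf 0.879 in nLung replicate 2, Ncaph 0.875 in nLung replicate 1 and Nusap1 0.85 in nLung replicate 2 (the lowest). The arrays that stood apart were not 1 and the same, nor were they all high or all low.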

How the results depend on the processing

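The members called numbered 0 under every alternative, and so did the calls over all probe sets. Members higher at an unadjusted p under 0.05 were 1 in the fit reported, 2 with the array sets as a block, and 0 to 2 with an array left out (2 without KP(l) replicate 1 or nLung replicates 3 or 4, 0 without KP(l) replicates 2 or 3). Those lower were 2, but 1 with an intensity trend or with only probe sets above the median mean, 3 with SAM or with nLung replicate 1 left out, 4 with array weights, and 0 to 4 with an array left out (0 and 4 where these were KP(l) replicates 1 and 3, and 1 where it was KP(l) replicate 2 or nLung replicate 3). The shares of all probe sets at this level moved with the setting too. The share higher ran from 2.01% without nLung replicate 3 to 4.23% without KP(l) replicate 3. The share lower ran from 1.56% without KP(l) replicate 2 to 3.3% with only probe sets above the median mean. The median log2 fold change of the members was -0.08, and ran with an array left out from -0.17 (KP(l) replicate 2) to 0.038 (KP(l) replicate 1). Pcna, at 0.06, turned to -0.035 with array weights and to -0.016 and -0.050 without nLung replicates 1 and 2, and Birc5, at 0.07, to -0.16 without KP(l) replicate 2 and -0.33 without nLung replicate 2. With an array left out Pcna ran up to 0.19 and Birc5 up to 0.34. The cause was not tested. All other 504 values of the 34 genes kept their sign, but not all of these are separate checks. The intensity trend, SAM and the limit to probe sets above the median mean leave the log2 fold change as it was. The replicate block gives the same log2 fold change as leaving out nLung replicate 4. With the replicate block 1 member was higher (Ccnb1) and 2 were lower (Bub1b and Kif20a), with a median of -0.04. Same-numbered arrays deviated together only weakly (r of 0.08, 0.02 and 0.19), and only replicate 3 correlated best with its own number. These r were positive within the sets of arrays and negative between them. The check therefore cannot decide whether the numbers pair the arrays. With only the bases before the start, 11 members in place of 20 had CHR letters.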
